A study of Rattus norvegicus with 24 samples.

Results

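The genes described here encode the nuclear subunits of the mitochondrial respiratory chain and of ATP synthase, measured on exon-level microarrays in the striatum and substantia nigra of a rat model of levodopa-induced dyskinesia. They were chosen by their current symbol: Nduf followed by a, b, c, s or v and a digit (NADH dehydrogenase), Sdha to Sdhd (succinate dehydrogenase), or a symbol that begins with Uqcr (cytochrome bc1), Cox4 to Cox8 (cytochrome oxidase) or Atp5 (ATP synthase). The complex I subunit Ndufab1 and the complex III subunit Cyc1 do not match these patterns and are not members. Of 16582 genes with a probe set of their own, 80 met this rule, 37 in complex I, 4 in complex II, 7 in complex III, 16 in complex IV and 16 in complex V. They lay on 20 chromosomes and were read by 405 probe sets, with a median of 4 and a range of 1 to 21 per gene. The symbols of 2 of them are those of pseudogenes, Ndufb4-ps1 and Cox6c-ps1, and 37 members have at least 1 pseudogene locus listed under their name in the gene table, so signal from near-identical copies could not be told apart there.

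Complexes I to IV pass electrons from NADH and succinate to oxygen and pump protons across the inner mitochondrial membrane, except complex II, and complex V uses the proton gradient to make ATP. Most of their subunits are encoded in the nucleus, and their transcripts tend to vary together between cell types according to oxidative demand. Complex I in nigral dopamine neurons is known as a weak point in Parkinson's disease. Several subunits of complex IV exist as isoforms of different tissues, and the isoform pairs are described separately.

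All rats were adult male Sprague Dawley rats with injections into 1 side of the brain. The lesioned rats received the dopamine neuron toxin 6-hydroxydopamine (6-OHDA) and the rats called intact received its ascorbic acid and saline vehicle. The 4 groups were 6-OHDA-lesioned rats given levodopa that became dyskinetic, 6-OHDA-lesioned rats given levodopa that were non-dyskinetic, 6-OHDA-lesioned rats given no levodopa but saline (called vehicle), and intact rats given levodopa. Treatment began 3.5 weeks after the lesion, a lesion counted as successful at more than 90% loss of striatal dopamine, and dyskinesia was rated in 7 sessions. Each group gave 3 arrays of lateral striatum and 3 of substantia nigra, 24 in all, from 14 animals of which 10 gave both tissues. Vehicle against intact therefore compares lesion and levodopa at once, whereas levodopa-treated lesioned against intact rats differ in the lesion alone, and non-dyskinetic rats were sorted by the behaviour they developed. The labels do not give the side punched or the levodopa dose.

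Values are the authors' log2 values, and a member's value is the mean over its probe sets. Genes among the lowest 25% by mean in a tissue were left out before testing, which left 76 members in striatum and 75 in nigra of 12436 genes tested in each. Cox6c-ps1, Cox8b, Cox8c and Ndufb4l3 fell below that line in both tissues and Ndufa13 in nigra. The median gene read between 8.38 and 8.51 on the striatal arrays and between 8.71 and 8.82 on the nigral arrays.

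The tissues carried the markers of their labels. Above each array's median, the mean of dopamine neuron markers lay between 2.63 and 2.94 log2 units in intact nigra, between 1.14 and 1.49 in non-dyskinetic nigra, between 0.36 and 1.22 in dyskinetic nigra and between -0.03 and 0.46 in vehicle nigra. In this mean the non-dyskinetic nigrae lay above all vehicle nigrae, and the dyskinetic range overlapped both. Few of these markers were called between the lesioned groups, as given below. Markers of striatal projection neurons lay between 3.07 and 3.2 in striatum and between -0.72 and -0.21 on 11 nigral arrays, but at 0.60 on vehicle replicate 1. In these bulk punches, fewer cells of a type and less RNA per cell cannot be told apart.

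The stretch before the start of a gene is shown for 4 members on which the results turn: Cox6a2 and Cox6b2, which carry the largest tissue difference and the clearest nigral calls in complex IV, and Ndufs1 and Uqcrc1, whose nigral and striatal arrays separated. RefSeq's table for rat assembly GRCr8 held such windows for 70 of the 80 members, matched by gene ID. The 250 bases before the annotated start are given 5′ to 3′ on the gene's strand, and capitals mark matches, on either strand, to a MEF2-type motif (the capitals of Cox6a2 as printed), the ETS motif CCGGAAG, as bound by GABPA (in reverse complement in Ndufs1), or an NRF1 motif (in reverse complement in Uqcrc1, with any base allowed at the fifth capital from the left). Cox6a2 lies on the minus strand at chr1:192219717-192219966, Cox6b2 on the plus strand at chr1:78122621-78122870, Ndufs1 on the minus strand at chr9:72073606-72073855 and Uqcrc1 on the plus strand at chr8:118467973-118468222.
Cox6a2: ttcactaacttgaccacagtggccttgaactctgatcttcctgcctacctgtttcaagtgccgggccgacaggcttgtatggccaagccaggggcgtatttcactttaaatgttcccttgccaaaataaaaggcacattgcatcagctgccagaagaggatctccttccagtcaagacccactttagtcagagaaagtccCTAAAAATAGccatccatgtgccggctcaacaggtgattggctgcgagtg
Cox6b2: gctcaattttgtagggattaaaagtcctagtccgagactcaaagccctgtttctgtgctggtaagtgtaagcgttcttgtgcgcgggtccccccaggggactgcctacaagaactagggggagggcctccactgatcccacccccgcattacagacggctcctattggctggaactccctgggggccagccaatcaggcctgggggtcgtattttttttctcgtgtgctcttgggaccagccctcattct
Ndufs1: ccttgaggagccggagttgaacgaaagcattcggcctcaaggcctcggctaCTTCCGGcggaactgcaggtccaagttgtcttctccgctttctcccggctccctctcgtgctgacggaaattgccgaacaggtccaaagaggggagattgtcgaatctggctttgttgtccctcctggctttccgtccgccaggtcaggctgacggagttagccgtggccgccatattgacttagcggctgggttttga
Uqcrc1: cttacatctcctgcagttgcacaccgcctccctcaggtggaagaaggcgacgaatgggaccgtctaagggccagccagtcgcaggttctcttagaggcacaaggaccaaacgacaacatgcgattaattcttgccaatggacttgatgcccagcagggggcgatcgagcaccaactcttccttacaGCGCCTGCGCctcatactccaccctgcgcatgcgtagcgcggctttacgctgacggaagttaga

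The MEF2-type motif lay in the window of Cox6a2 alone among the 70 members, or 1.43%, and in 14 of 18999 protein-coding genes, or 0.0737%. Only the exact spelling of 10 bases printed in Cox6a2 was searched. Its rarity therefore follows in part from the letters chosen and says nothing about looser matches. The NRF1 motif was found in 11 members, 15.7%, against 5.42% of all windows. The ETS motif was found in 20 members, 28.6%, against 9.51% of all windows. None of the 4 windows shown held more than 1 kind of motif, and Cox6b2 held none of them. The letters were searched as a description of these windows, and binding was not measured.

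The clearest difference among the members was between the tissues. After each array was centred on its median, 44 of 75 members were higher in nigra than in striatum over the 4 conditions and 5 were lower, by limma at an adjusted p under 0.05, while 80.1% of all genes tested passed in either direction, 39% higher and 41% lower. The median member stood 0.159 log2 units higher in nigra and the median of all genes stood at -0.009. On the values as deposited, without centring, the median of all genes was 0.32 higher in nigra, the median member 0.49 higher, and all 75 members passed as higher, so the direction of the 5 lower calls, and of all 17 members below 0 after centring, depends on the scaling. Whether the authors normalised the tissues together is not stated in the labels, and the directions below are relative to the array median.

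Cox6a2, the muscle-type isoform of cytochrome oxidase subunit 6a, stood apart from the rest. It read 6.92, 7.10 and 7.12 in dyskinetic striatum, 7.18, 6.99 and 7.09 in non-dyskinetic striatum, 7.06, 7.08 and 7.10 in vehicle striatum and 6.86, 7.08 and 7.08 in intact striatum. In nigra it read 9.44, 8.61 and 9.21 in dyskinetic rats, 9.28, 9.25 and 9.74 in non-dyskinetic rats, 9.66, 9.77 and 9.44 in vehicle rats and 8.81, 8.98 and 9.21 in intact rats. No nigral array came near a striatal one. The centred difference was 1.89 ± 0.078 (SE) log2 units, with a limma adjusted p of 3.8e-16 and no other member above 0.49. All 3 of its probe sets were higher in each nigral group than in each striatal group.

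The Cox6a2 difference stood beside a difference in markers of parvalbumin-positive, fast-spiking neurons, a cell type in which this isoform is known from the mouse brain. Of 4 such markers 3 were higher in nigra and none lower, with a median of 1.612 log2 units. Of all genes tested 39% were called higher and 41% lower. Parvalbumin (Pvalb) itself read between 7.43 and 8.0 on striatal arrays and between 10.13 and 10.73 on nigral arrays. In striatum the 2 did not move together. The mean of these markers ran from 0.46 to 0.51 in dyskinetic and from 0.75 to 0.94 in non-dyskinetic striatum. Cox6a2 gave differences between -0.04 and 0.07 within striatum. In nigra the marker mean ran from 2.00 to 2.21 in dyskinetic and from 2.10 to 2.30 in vehicle rats. These ranges overlapped, with group means of 2.12 and 2.22, lower in dyskinetic rats as was Cox6a2 at -0.54. The part of these cells in the Cox6a2 value was not tested. The MEF2-type motif of the window printed above lay between 50 and 41 bases before its start, and its part in the Cox6a2 value was not tested either.

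**Figure D1:**
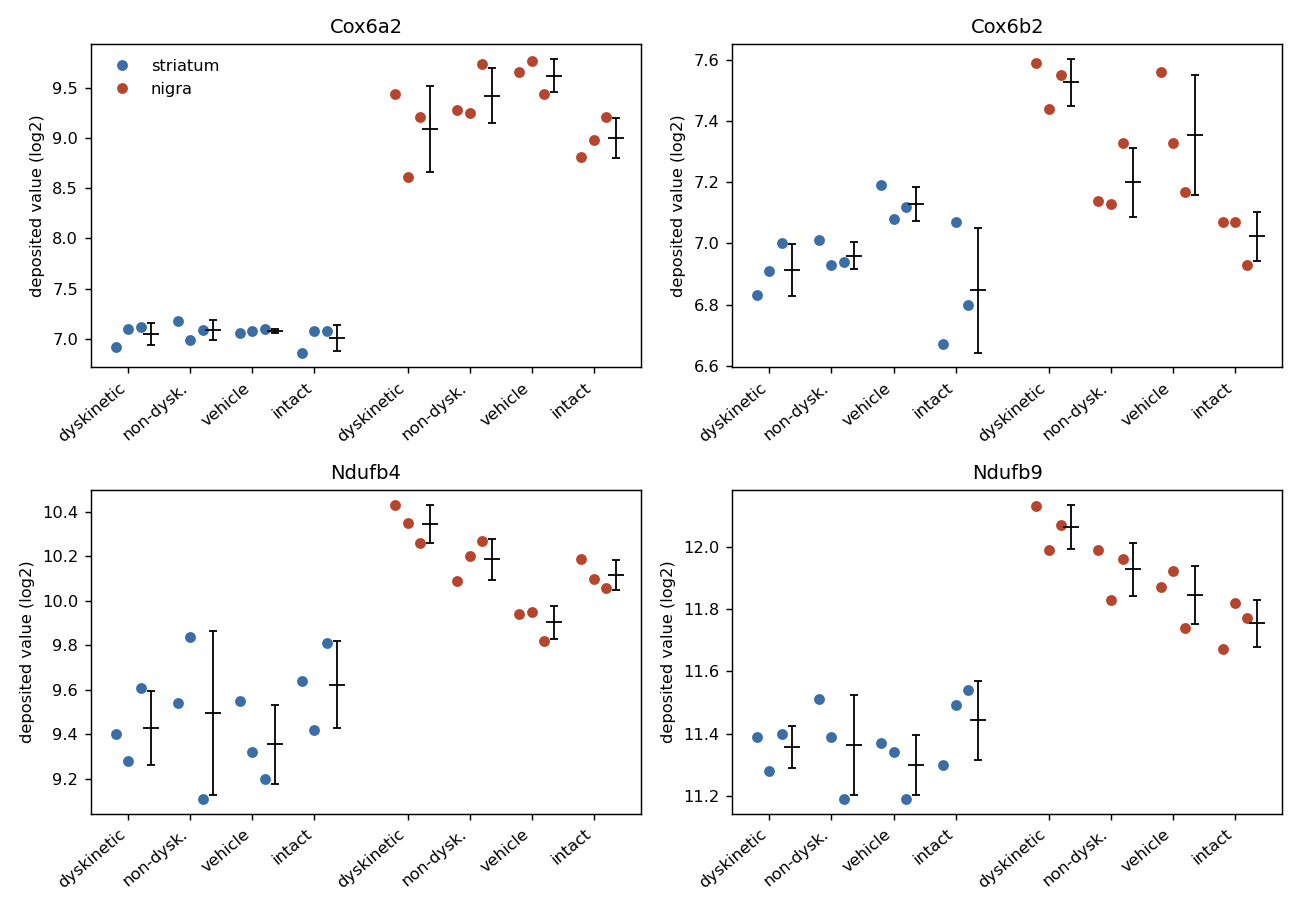
Deposited log2 value of 4 members on each array, by group, with striatal arrays in blue and nigral arrays in red, and the mean and SD (n = 3) as a black bar beside each group; the vertical axes differ and do not start at 0. Cox6a2 lies between 6.86 and 7.18 in striatum and between 8.61 and 9.77 in nigra, and in nigra Cox6b2 and Ndufb9 are highest in the dyskinetic and lowest in the intact group means, while Ndufb4 is lowest in the vehicle group.

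The other isoform genes of complex IV gave smaller values. Cox6a1, the ubiquitous partner isoform, differed by 0.03 ± 0.048 between the tissues, with an adjusted p of 0.57. Cox4i1, the common form of subunit 4, was higher in nigra by 0.20 ± 0.048, and Cox4i2, its oxygen-regulated isoform best known from lung, by 0.31 ± 0.044. Cox7a2l, which helps join complexes III and IV into supercomplexes, was higher by 0.49 ± 0.040 with no overlap of the arrays. Cox7a2 gave 0.05 ± 0.034 with an adjusted p of 0.18. Cox8a, the common form of subunit 8, was lower by 0.24 log2 units in nigra after centring (-0.24 ± 0.042) and higher by 0.09 without it. In all, 7 of 13 tested complex IV genes were higher and 1 was lower, with a median of 0.154.

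In complex I, 21 of 35 tested genes were higher in nigra and 1 was lower, with a median of 0.179. Ndufs1, the largest of the iron-sulphur subunits, read between 10.07 and 10.27 on striatal arrays and between 10.72 and 11.07 on nigral arrays. Its arrays did not overlap after centring, and the difference was 0.44 ± 0.037. Ndufa2 gave 0.43 ± 0.057 and Ndufb7 gave 0.40 ± 0.052. Ndufv1, which carries the NADH site, gave 0.02 ± 0.036 with an adjusted p of 0.60, and Ndufa4, an associated subunit of complex IV despite its name, gave -0.05 ± 0.050 with an adjusted p of 0.40. Ndufs3 was the lower one, at -0.21 ± 0.051.

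Succinate dehydrogenase had the highest median of the 5 complexes, 0.346, with 3 of its 4 genes higher in nigra. The iron-sulphur subunit Sdhb gave 0.44 ± 0.070, the membrane anchor Sdhc gave 0.41 ± 0.040 with no overlap of the arrays, and the flavoprotein Sdha gave 0.29 ± 0.038. The other anchor, Sdhd, gave -0.06 ± 0.041 with an adjusted p of 0.20, and 0.27 without centring, where all 4 genes were called higher. The difference between Sdhd and the other 3 genes was not tested.

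In complex III, 4 of 7 genes were higher in nigra and 1 was lower, with a median of 0.221. The core protein Uqcrc1 was higher by 0.35 ± 0.037 with no overlap of the arrays, Uqcrc2 by 0.26 ± 0.035, and the Rieske iron-sulphur protein Uqcrfs1 by 0.22 ± 0.075. The small subunit Uqcr11 gave -0.18 ± 0.054. In ATP synthase, 9 of 16 genes were higher and 2 were lower, with a median of 0.138. Atp5mc3, 1 of the genes of the rotating c-ring, was higher by 0.41 ± 0.044, whereas the other c-ring genes Atp5mc1 and Atp5mc2 gave -0.03 ± 0.073 and 0.03 ± 0.047. Atp5f1a and the catalytic subunit Atp5f1b also parted after centring, at 0.16 ± 0.032 and -0.14 ± 0.035, the latter 0.19 without centring.

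Only 5 of 75 members (6.67%) had centred arrays that did not overlap between the tissues, against 32.2% of all genes tested. All 5 were higher in nigra: Cox6a2, Cox7a2l, Ndufs1, Sdhc and Uqcrc1. Leaving Cox6a2 aside, the differences ran from -0.24 to 0.49. Members with the NRF1 motif had a median difference of 0.21 (11 genes) and those without it 0.15 (55 genes), and members with the ETS motif 0.17 (19 genes) against 0.15 (47 genes).

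**Figure D2:**
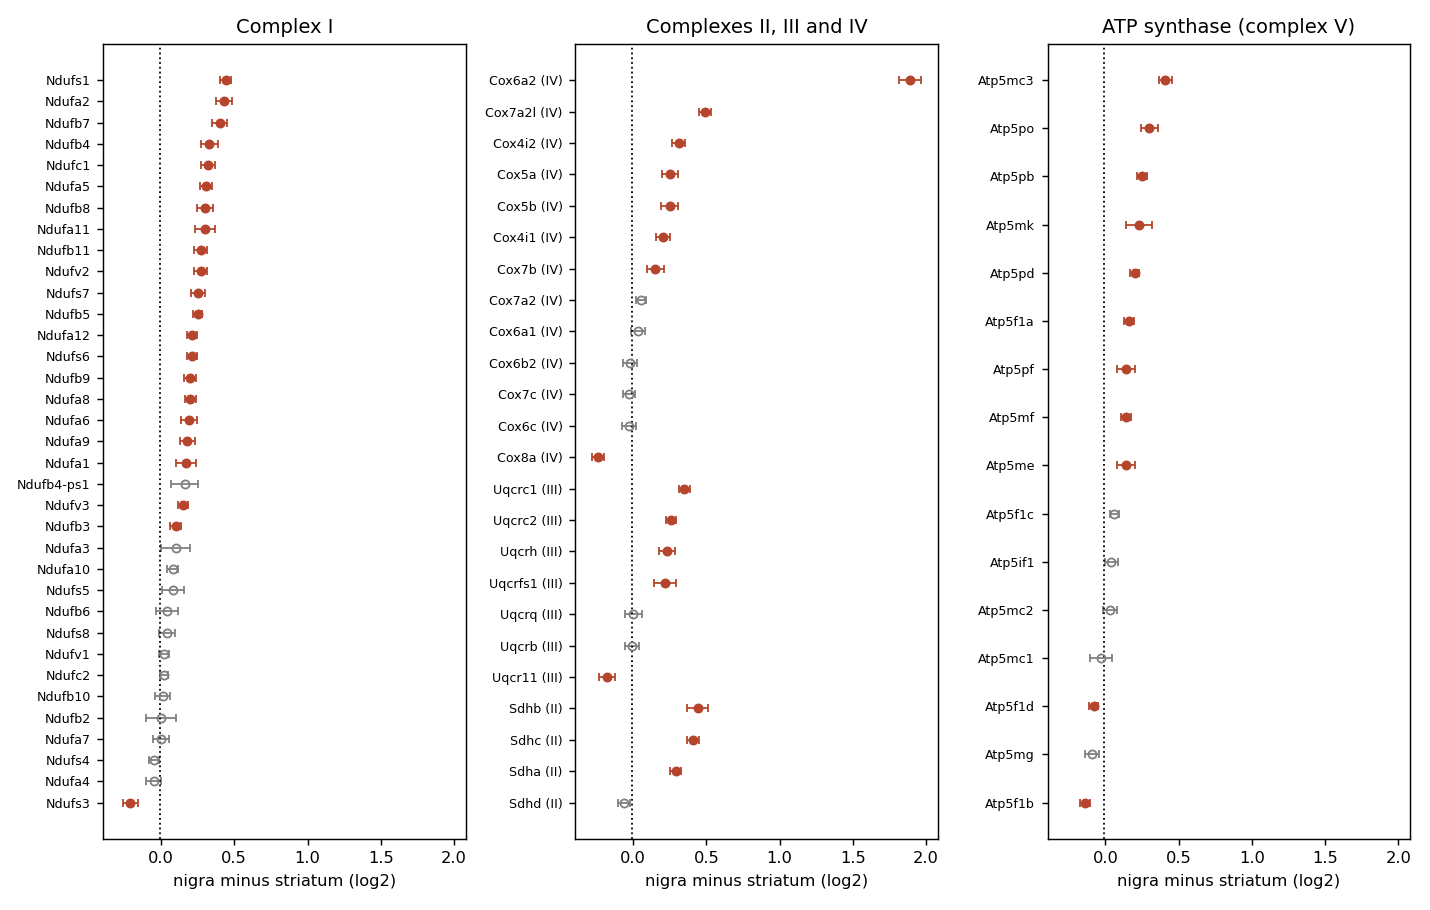
Nigra minus striatum for each of the 75 tested members (log2 units, arrays centred on their medians, mean over the 4 conditions, bars 1 SE from limma), by complex; filled red points passed at an adjusted p under 0.05, open grey points did not, and the dotted line is the median of all genes tested. Cox6a2 lies at 1.89 and the other members between -0.24 and 0.49.

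Genes of neighbouring mitochondrial pathways were also called between the tissues, where 80.1% of all genes tested were called, 39% higher and 41% lower. Of 15 tested genes of the citric acid cycle 12 were higher in nigra and none lower, with a median of 0.353, among them Suclg2, a succinyl-CoA ligase subunit, at 0.84 ± 0.041, and the mitochondrial isocitrate dehydrogenase Idh2 at 0.72 ± 0.037. Assembly factors for the complexes were split, with 15 of 36 higher and 11 lower. Ttc19, an assembly factor of complex III, gave -0.94 ± 0.032, and Ndufaf1, of complex I, gave 0.51 ± 0.053. Among regulators of mitochondrial biogenesis 4 of 13 were higher and 6 lower, with the coactivator Ppargc1a at 0.77 ± 0.051, its relative Ppargc1b at -0.57 ± 0.041 and the receptor Esrrg at 1.49 ± 0.054. Cytochrome c (Cycs), the carrier between complexes III and IV, gave -0.61 ± 0.049, and complex III's cytochrome c1 (Cyc1) gave 0.23 ± 0.042. Mitochondrial ribosomal protein genes had a median of 0.057 and cytosolic ones -0.017.

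Within the striatum no member passed the test in any of the 5 comparisons. Dyskinetic against non-dyskinetic rats called 0 of 76 members, against 5.26% of all genes tested (3.06% higher, 2.2% lower), and limma gave 2 higher and none lower at an unadjusted p under 0.05. The median member stood at 0.070 and the median of all genes at -0.031, and 65 members stood above that median. The 95% interval of the difference lay within 0.5 log2 units of 0 for 68 members and within 1 for all 76. The arrays of the groups did not overlap for 2 members, or 2.63%, against 23.6% of all genes.

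The highest statistics in that comparison were those of ATP synthase genes. Atp5if1, the inhibitor that keeps the enzyme from running in reverse, read 10.36, 10.41 and 10.37 in dyskinetic striatum and 10.34, 10.19 and 10.09 in non-dyskinetic striatum. The difference was 0.17 ± 0.077 with an adjusted p of 0.21. Atp5mc3 gave 0.20 ± 0.089 and Atp5mc1 gave 0.28 ± 0.14, with adjusted p of 0.22 and 0.28. The lowest were Cox7a2l at -0.12 ± 0.10, Uqcrb at -0.14 ± 0.11 and Ndufv3 at -0.09 ± 0.076, with adjusted p from 0.52 to 0.54. None of the 6 passed the test.

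The shift of the striatal median between dyskinetic and non-dyskinetic rats rested on 1 array. Averaged over the members, values stood between 1.78 and 1.95 log2 units above the array median on 11 striatal arrays and at 1.62 on non-dyskinetic replicate 3. Without that array the members' median exceeded that of all genes by 0.002 in place of 0.101. The same array had the lowest mean of cytosolic ribosomal protein genes in striatum, 1.06 against 1.16 to 1.37 on the others. In nigra, vehicle replicate 3 stood at 1.83 against 1.96 to 2.23 on the other 11 arrays. The cause of these low arrays was not tested.

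**Figure D3:**
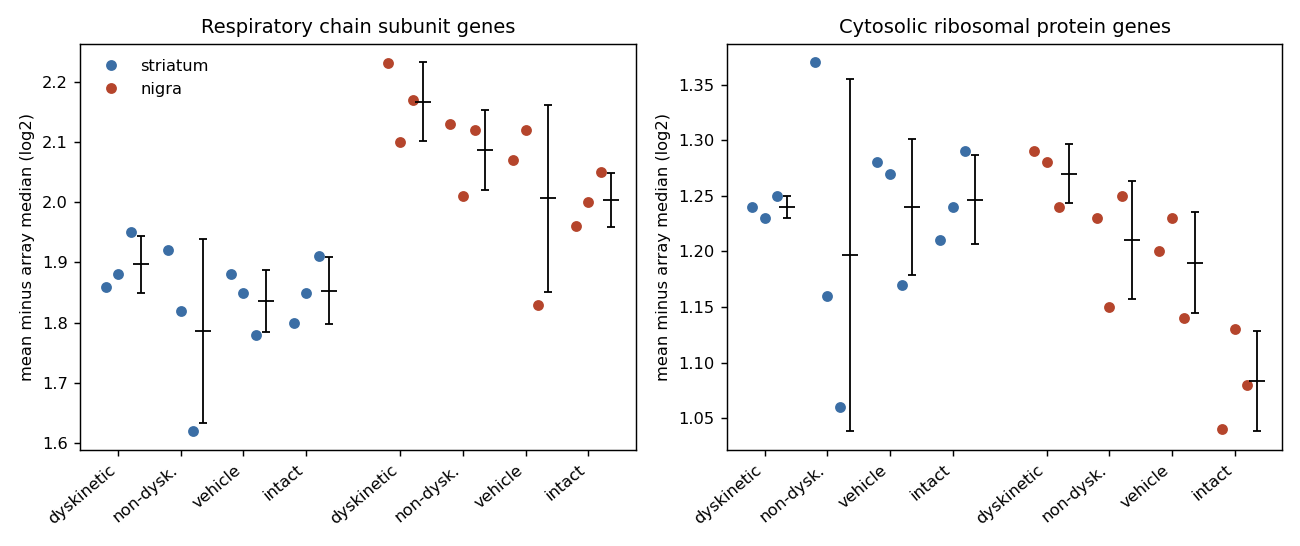
Mean over the subunit genes (left) and over cytosolic ribosomal protein genes (right), each minus the median of all tested genes on the same array (log2 units), for the 3 arrays of each group, with the mean and SD (n = 3) in black; axes do not start at 0. The lowest subunit values are those of non-dyskinetic replicate 3 in striatum (1.62) and vehicle replicate 3 in nigra (1.83). The other nigral arrays lie from 1.96 upwards and the striatal ones at 1.95 or less. The genes tested differ between the tissues, with 76 members in striatum and 75 in nigra, where Ndufa13 was left out. So small a gap between the tissues therefore cannot be read as a separation.

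The remaining striatal comparisons gave the same count. Dyskinetic against vehicle rats called 0 of 76 members against 5.18% of all genes (3.63% higher, 1.55% lower), with 2 higher and 2 lower at an unadjusted p under 0.05 by limma. The median member stood at 0.043 and the median of all genes at -0.027, and 58 members stood above that median. With single arrays left out the members' median exceeded that of all genes by 0.03 to 0.091. Uqcrb, a small complex III subunit, gave 0.26 ± 0.11, Ndufa2 gave 0.28 ± 0.13 and Ndufv1 gave 0.16 ± 0.077, while Ndufa10 gave -0.21 ± 0.075, Cox6b2 gave -0.21 ± 0.092 and Ndufs7 gave -0.11 ± 0.088. Their adjusted p ran from 0.14 to 0.59. Arrays did not overlap for 8 members, 10.5%, against 23% of all genes. Non-dyskinetic against vehicle rats called 0 against 0.0322%, with 1 higher and 1 lower at an unadjusted p under 0.05. The highest of these statistics was that of Uqcrb (0.40 ± 0.11, adjusted p of 0.47), followed by Ndufa2 at 0.20 ± 0.13 and Ndufa12 at 0.12 ± 0.084. The lowest were those of Ndufa10 at -0.18 ± 0.075, Atp5if1 at -0.14 ± 0.077 and Uqcrh at -0.19 ± 0.10. The medians were -0.011 for the members and 0.012 for all genes.

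Levodopa-treated lesioned against intact rats called 0 of 76 members in striatum against 3.49% of all genes (2.2% higher), with 1 higher and 1 lower at an unadjusted p under 0.05. The medians were -0.026 for the members and -0.018 for all genes. Ndufb4-ps1 gave 0.38 ± 0.17, Uqcr11 0.17 ± 0.10 and Cox5a 0.18 ± 0.11, whereas Uqcrh gave -0.21 ± 0.091, Sdhb -0.24 ± 0.12 and Ndufa2 -0.22 ± 0.11. Arrays did not overlap for 2 members against 6.66% of all genes. Vehicle against intact rats called 0 against 0.442%, again with 1 higher and 1 lower at an unadjusted p under 0.05, and medians of -0.052 and -0.012. Cox6b2 gave 0.28 ± 0.092, Uqcr11 0.18 ± 0.11 and Ndufa13 0.13 ± 0.13, and Ndufa2 gave -0.46 ± 0.13 with an adjusted p of 0.23, Ndufv1 -0.15 ± 0.077 and Uqcrb -0.21 ± 0.11. In none of the 5 striatal comparisons did a subunit gene pass after adjustment over all genes, although the arrays of some members did not overlap.

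Other respiratory chain genes moved little in striatum as well. Acad9, an assembly factor of complex I, was higher in dyskinetic than in non-dyskinetic striatum by 0.37 ± 0.099 (adjusted p of 0.043) and than in vehicle striatum by 0.44 ± 0.099 (adjusted p of 0.015), 2 comparisons that share the dyskinetic arrays. It was the only one of 36 tested assembly factors called in either. Slc25a3, the mitochondrial phosphate carrier that feeds ATP synthase, was higher in dyskinetic than in vehicle striatum by 0.29 ± 0.068 with an adjusted p of 0.020.

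The nigra was the tissue in which the lesion was largest by its markers. All 9 dopamine neuron markers were lower in vehicle than in intact nigra, with a median of -2.676, and in levodopa-treated lesioned than in intact nigra, with a median of -1.765. Among the respiratory chain genes none was called lower in either comparison. In vehicle against intact nigra 1 of 75 members was called, higher, and none lower, while 12.8% of all genes were called, 5.52% higher and 7.26% lower. Arrays did not overlap for 6 members, 8%, against 32.7% of all genes. At an unadjusted p under 0.05, 4 members were higher and 2 lower. The medians were 0.002 for the members and -0.004 for all genes, and the 95% interval lay within 0.5 log2 units of 0 for 71 members.

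Cox6b2, a subunit 6b isoform best known from testis, was the member called there. It read 7.56, 7.33 and 7.17 in vehicle nigra and 7.07, 7.07 and 6.93 in intact nigra. All vehicle arrays lay above all intact ones, and the difference was 0.33 ± 0.096 with an adjusted p of 0.039. Without vehicle replicate 1, the array with striatal markers, it was 0.23 with an adjusted p of 0.14. No member passed without that array, without vehicle replicate 2 or without any 1 of the 3 intact arrays. The next highest were Cox6a2 at 0.62 ± 0.19 (adjusted p of 0.053) and Uqcr11 at 0.24 ± 0.098 (adjusted p of 0.13), and the lowest were Ndufb4 at -0.21 ± 0.072, Uqcrb at -0.22 ± 0.093 and Ndufb3 at -0.17 ± 0.083. Beside the Cox6a2 value, markers of parvalbumin-positive, fast-spiking neurons had a median of 0.299 in this comparison, with 1 of 4 called higher, and their mean ran from 2.10 to 2.30 in vehicle and from 1.76 to 2.05 in intact nigra. Their part in it was not tested.

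In levodopa-treated lesioned against intact nigra 4 of 75 members were higher and none lower, 5.33% of the members against 12.5% of all genes in either direction, 4.05% higher and 8.48% lower. At an unadjusted p under 0.05, 16 were higher and none lower. The median member stood at 0.097 and the median of all genes at -0.005, and 62 members stood above that median. Cytosolic ribosomal protein genes had a median of 0.129 in the same comparison, with 13 of 63 called higher and none lower, and their means ran from 1.04 to 1.13 in intact nigra and from 1.15 to 1.29 in levodopa-treated lesioned nigra. Microglial markers moved the same way, 3 of 8 higher and none lower, with a mean between 0.35 and 0.52 in intact nigra and between 0.67 and 1.07 in these lesioned ones. The mean of astrocyte markers ran from 3.25 to 3.31 in intact and from 3.35 to 3.55 in these lesioned nigrae, with 1 of 6 called higher. That of oligodendrocyte markers ran from 3.15 to 3.29 and from 3.35 to 3.57, with 1 of 7 called higher. Endothelial and pericyte markers, with 1 of 6 called higher, overlapped in their means. So did general neuron markers, from 2.89 to 2.94 in intact and from 2.75 to 3.02 in these lesioned nigrae. Among them Syt1, Stmn2, Nefl and Nefm were called. The mean of parvalbumin and fast-spiking neuron markers ran from 1.76 to 2.05 and from 2.00 to 2.39. The part of these cells in the subunit values was not tested.

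Cox6b2 read 7.59, 7.44 and 7.55 in dyskinetic and 7.14, 7.13 and 7.33 in non-dyskinetic nigra, all above the 3 intact values. Its difference from intact was 0.34 ± 0.083 with an adjusted p of 0.018. Ndufb9, a membrane-arm subunit of complex I, read 12.13, 11.99 and 12.07 in dyskinetic nigra, 11.99, 11.83 and 11.96 in non-dyskinetic nigra and 11.67, 11.82 and 11.77 in intact nigra. The groups did not overlap, although non-dyskinetic replicate 2 and intact replicate 2 lay close together. The difference was 0.24 ± 0.063 with an adjusted p of 0.024, and all 4 of its probe sets had their lowest nigral mean in the intact group.

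Ndufb11, another membrane-arm subunit, read 11.27, 11.18 and 11.27 in dyskinetic nigra, 11.20, 11.04 and 11.15 in non-dyskinetic nigra and 10.94, 11 and 10.96 in intact nigra. The difference was 0.22 ± 0.065 with an adjusted p of 0.046, close to the threshold. The pseudogene symbol Ndufb4-ps1, read by 1 probe set, gave 0.49 ± 0.14 with an adjusted p of 0.043, and its arrays overlapped. Its intact values were 8.19, 7.91 and 7.98, against 8.68, 8.87 and 8.69 in dyskinetic and 8.53, 8.19 and 8.15 in non-dyskinetic nigra. Leaving out single arrays took the count from 4 to between 0 and 4, with 0 called without intact replicate 2 or without intact replicate 3. Without dyskinetic replicate 1 or 3, non-dyskinetic replicate 3 or intact replicate 1 the count was 1.

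Single genes of the pathways around the chain were called in the comparisons with intact nigra. Of 16 glycolytic genes 3 were lower and none higher in levodopa-treated lesioned nigra against intact, where 12.5% of all genes were called. In vehicle against intact, which differ in levodopa as well as the lesion, 4 were lower and 1 higher, where 12.8% of all genes were called, and both comparisons share the intact arrays. Lactate dehydrogenase A (Ldha) gave -0.70 ± 0.074 and -0.68 ± 0.086 in them, and the liver-type phosphofructokinase Pfkl gave -0.42 ± 0.071 and -0.42 ± 0.081. The transhydrogenase Nnt, which supplies mitochondrial NADPH, gave 0.25 ± 0.076 and 0.30 ± 0.087. The fusion protein Mfn2 gave -0.20 ± 0.054 and -0.26 ± 0.062. Ttc19 gave -0.26 ± 0.066 and -0.26 ± 0.076, and Sdhaf1, an assembly factor of complex II, was lower in vehicle nigra at -0.27 ± 0.068. Idh2 was the only one of 15 citric acid cycle genes called, at 0.30 ± 0.078 in vehicle against intact nigra.

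Dyskinetic against vehicle nigra gave the largest shift of the members' median within a tissue. It stood at 0.116 against -0.017 for all genes, with 65 of 75 members above that median, and at an unadjusted p under 0.05 limma gave 17 higher and 1 lower. After adjustment 1 member was called, higher, against 2.22% of all genes in either direction, 0.764% higher and 1.46% lower. The arrays did not overlap for 20 members, 26.7%, against 25.7% of all genes. Without vehicle replicate 3, the nigral array lowest in the mean of the subunit genes and of mitochondrial ribosomal protein genes (0.34 against 0.49 to 0.67 on the other 11), the members' median exceeded that of all genes by 0.058 in place of 0.134, and without vehicle replicate 1 by 0.161. Dopamine neuron markers also stood higher in dyskinetic than in vehicle nigra, with a median of 0.474, 1 of 9 called higher and 1 lower. The mean of cytosolic ribosomal protein genes ran from 1.24 to 1.29 in dyskinetic and from 1.14 to 1.23 in vehicle nigra, with none of 63 called. That of mitochondrial ribosomal protein genes ran from 0.56 to 0.67 and from 0.34 to 0.55, with 1 of 69 called higher. Their part in the shift of the subunit genes was not tested.

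The member called was Ndufb4, an accessory subunit of complex I's membrane arm, which is read by 1 probe set of its own. It read 10.43, 10.35 and 10.26 in dyskinetic, 10.09, 10.20 and 10.27 in non-dyskinetic, 9.94, 9.95 and 9.82 in vehicle and 10.19, 10.10 and 10.06 in intact nigra. The vehicle arrays were the lowest of all 12, and the dyskinetic and intact arrays did not overlap. Dyskinetic minus vehicle was 0.44 ± 0.072 with an adjusted p of 0.012. It passed with any 1 vehicle array left out, and not without dyskinetic replicate 1, when it was 0.40 with an adjusted p of 0.060. The count of members called rose from 1 to 6 without vehicle replicate 2. In striatum the same gene gave differences between -0.27 and 0.14.

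Copies of Ndufb4 share its sequence, so its neighbours on the array are given beside it. Ndufb4-ps1 gave 0.68 ± 0.17 in the same comparison, with an adjusted p of 0.053. The pair of probe sets that name both genes, which entered no test, read 10.89 ± 0.06 (SD, n = 3) and 11.49 ± 0.10 in dyskinetic nigra and 10.51 ± 0.19 and 11.15 ± 0.25 in vehicle nigra. They differ in the same direction as the gene's own probe set. In intact nigra the pair read 10.60 ± 0.10 and 11.15 ± 0.08, so it did not set vehicle clearly below intact nigra. The next highest was Atp5me, a membrane subunit of ATP synthase, at 0.33 ± 0.091 with an adjusted p of 0.074, and the lowest were Cox6a2 at -0.54 ± 0.19, Uqcrfs1 at -0.33 ± 0.17 and Uqcr11 at -0.19 ± 0.098, with adjusted p of 0.14, 0.29 and 0.30.

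Dyskinetic against non-dyskinetic nigra, from rats sorted by the behaviour they developed, called 0 of 75 members against 0.241% of all genes. At an unadjusted p under 0.05 limma gave 4 members higher and none lower. The medians were 0.065 and -0.018, and 57 members stood above the latter. The 95% interval lay within 0.5 log2 units of 0 for 68 members and within 1 for all 75. Arrays did not overlap for 11 members, 14.7%, against 21.3% of all genes. Cox6b2 had the highest statistic, 0.33 ± 0.096 with an adjusted p of 0.17, and its dyskinetic arrays lay above the non-dyskinetic ones. Ndufb4-ps1 gave 0.46 ± 0.17 and Ndufb4 gave 0.16 ± 0.072, and the lowest were Uqcr11 at -0.17 ± 0.098, Cox6a2 at -0.34 ± 0.19 and Cox7a2l at -0.11 ± 0.070, with adjusted p from 0.24 to 0.51. Dopamine neuron markers had a median of -0.622 in this comparison, with 1 of 9 called lower.

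Non-dyskinetic against vehicle nigra called 0 of 75 members and 0% of all genes. At an unadjusted p under 0.05 limma gave 4 members higher and none lower. The medians were 0.072 and -0.001, and without vehicle replicate 3 the members' median lay 0.011 below that of all genes (-0.011). Ndufb4 gave 0.28 ± 0.072, Atp5me 0.32 ± 0.091 and Ndufs3 0.25 ± 0.088, with adjusted p of 0.34, 0.43 and 0.54. Cox6b2 gave -0.16 ± 0.096, Uqcrfs1 -0.22 ± 0.17 and Atp5mf -0.08 ± 0.068. Dopamine neuron markers had a median of 1.172 here, with none of 9 called, and their part in the subunit values was not tested. The 3 nigral comparisons among lesioned groups share arrays in pairs and are not separate evidence.

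**Figure D4:**
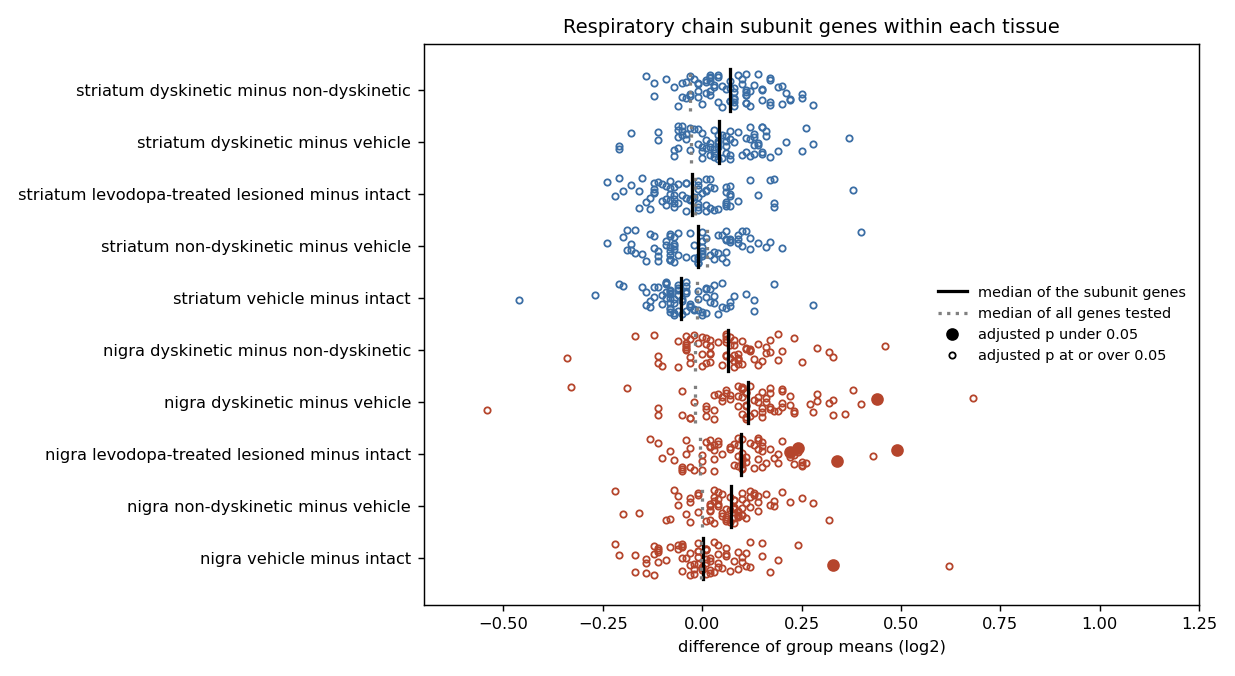
Difference of group means (log2 units) for each tested member in the 10 comparisons within a tissue, 76 members in striatum (blue) and 75 in nigra (red); filled points passed limma at an adjusted p under 0.05, black bars are the members' medians and dotted grey bars the medians of all genes. No striatal point is filled, 1, 4 and 1 nigral points are filled in dyskinetic minus vehicle, levodopa-treated lesioned minus intact and vehicle minus intact, and the vertical spread within a comparison has no meaning.

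A fixed list of core subunits and isoform genes was followed whatever their values, and none of those listed passed the test within a tissue. Cox6b2, which passed in nigra, was not on that list. Cox7a1 and Ndufa4l2 were on it but, like Cox6b1, were not among the 80 members. The 4 subunits of complex II had differences between -0.24 and 0.17 in striatum, both reached by Sdhb. In nigra Sdhb ranged from -0.12 to 0.38, Sdhc from 0.04 to 0.20, Sdhd from -0.06 to 0.10 and Sdha from -0.05 to 0.06, with no adjusted p under 0.093. Ndufs1 ranged from -0.05 to 0.09 in striatum and from -0.04 to 0.10 in nigra, and Ndufv1 from -0.15 to 0.16 and from -0.11 to 0.15. Ndufa4 ranged from -0.01 to 0.16 in striatum and from 0.01 to 0.32 in nigra, where its lowest adjusted p was 0.092.

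Uqcrc1 ranged from -0.09 to 0.15 in striatum and from -0.05 to 0.10 in nigra, and Uqcrfs1 from 0.04 to 0.18 and from -0.33 to 0.15. Atp5f1a stayed between -0.01 and 0.05 in striatum and between -0.06 and 0.08 in nigra, and Atp5f1b between -0.07 and 0.08 and between -0.12 and 0.11. Among the complex IV pairs, Cox4i1 ranged up to 0.15 in both tissues and Cox4i2 up to 0.08 in striatum and 0.23 in nigra. Cox6a1 stayed between -0.15 and 0.08 in striatum and between -0.04 and 0.11 in nigra, where Cox6a2 spanned -0.54 to 0.62. Cox7a2 lay between -0.10 and 0.15 and Cox8a between -0.11 and 0.11 over both tissues. Standard errors of a member's difference ran from 0.059 to 0.22 in striatum and from 0.049 to 0.20 in nigra, so differences of that size could not be resolved.

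Whether the tissues responded differently was tested directly. The dyskinetic minus non-dyskinetic difference differed between the tissues for 0 of 75 members, against 1.53% of all genes (1.31% higher). At an unadjusted p under 0.05 it did for 1 member, Cox6b2, at -0.37 ± 0.13 (striatum minus nigra, adjusted p of 0.19). The vehicle minus intact difference differed for 0 of 75 against 5.89% (4.09% higher, 1.79% lower), with 3 members at an unadjusted p under 0.05. Cox6a2 gave -0.55 ± 0.21, Ndufa2 gave -0.37 ± 0.16 and Ndufb9 gave -0.24 ± 0.11, with adjusted p of 0.14, 0.21 and 0.23. At this number of arrays no member's response was shown to be particular to a tissue.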

How the data were processed

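RNA from 24 tissue punches was hybridised to Affymetrix exon-level arrays, 1 array per punch. Per the submitters' processing notes the authors used RMA in oligo 1.34 under R 3.2.3, and the deposited values are log2 values per probe set. RMA background correction and quantile normalisation compress differences at low signal and force arrays normalised together to one distribution; whether both tissues were normalised together is not stated. Probe sets naming 1 gene were averaged per gene, with symbols brought up to date through the synonyms in the gene table, and 1661 probe sets naming several genes were left out. The genome build of the annotation is not given in the sources used here.

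Within each tissue, limma 3.58.1 (R 4.3.3) fitted 4 group means over 12 arrays. Nigra was compared with striatum over 24 arrays centred on their medians, and the differences between tissues in a response were fitted without centring, both with the animal as a random block. P-values were adjusted by the Benjamini-Hochberg method over all 12436 genes tested, with a threshold of 0.05. Within a tissue they rest on the spread within groups, estimated over the 4 groups together and moderated across genes. Between the tissues that spread is estimated over 8 groups and 24 arrays. The 3 animals of a group limit the precision. The fits were tested on simulated data.

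The members and gene lists were chosen with earlier results of these data known. Named in a comparison are up to 6 called members in each direction with the largest moderated t and arrays that do not overlap. With fewer than 3 called, the 3 highest and 3 lowest are named. Also named are a fixed list of core subunits and isoform genes, without Cox6b2, and up to 4 called genes of each other list. In the tissue comparison Ndufa2, Ndufb7, Ndufs3, Uqcr11, Uqcrc2, Atp5mc1 and Atp5mc2, and in nigra Ndufb4-ps1, were named after their values were seen. The alternatives were the median over probe sets, no filter on dim genes, array weights, other centring, only the arrays compared, the replicate number as a block, symbols as annotated, leaving out each array, and, chosen after seeing the data, leaving out pseudogene symbols.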

Additional observations from a re-analysis of the deposited data

How the results depend on the processing

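The counts of members called in striatum were 0 under every alternative run. In nigra they were small and moved. Dyskinetic against vehicle rats called 1 member, 20 with array weights (16 higher, 4 lower), 0 with only the arrays compared, and 0 to 6 with single arrays left out. Levodopa-treated lesioned against intact rats called 4, 13 with array weights, 9 with only the arrays compared, and 0 to 4 with single arrays left out. Vehicle against intact rats called 1, 2 with the median over probe sets, 2 without the filter on dim genes, 9 with array weights, and 0 to 1 with single arrays left out. Nigra against striatum called 49 members, 75 on values as deposited, and 44 to 50 with single arrays left out. On values as deposited all 17 members below 0 after centring stood above 0, among them Sdhd at 0.27, Cox8a at 0.09, Ndufa4 at 0.28, Atp5f1b at 0.19, Ndufs3 at 0.12, Uqcr11 at 0.15 and Atp5mc1 at 0.30. The difference between tissues in vehicle minus intact called 0, 1 without the filter and 2 with array weights. For dyskinetic minus non-dyskinetic that difference put the members' median 0.033 above that of all genes, from -0.072 (without non-dyskinetic striatal replicate 3) to 0.098 with single arrays left out. The causes were not tested. Replicate numbers named different animals in different groups. Same-numbered arrays correlated between -0.29 and 0.383 in their deviations, and differently numbered ones between -0.374 and 0.3. The highest correlations, 0.383, 0.339 and 0.335, were all between striatal replicate 1 arrays, and what these share was not tested. With the replicate block the counts were 1, 3 and 1 in the 3 nigral comparisons with calls and 48 between the tissues. Depth has no counterpart on arrays, and 3 arrays a group limit what can be seen.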
